A study of Mus musculus with 12 samples.

Results

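Otub1, its relative Otub2 and 7 genes of the ubiquitin-conjugating (E2) enzymes with which OTUB1 protein works were followed in 12 mouse lung cancer libraries. These 9 genes, of 19212 in the deposited table, were chosen by name: OTUB1 itself, its closest paralogue, the E2 enzymes that OTUB1 is known to bind (Ube2n, Ube2d1, Ube2d2a, Ube2d3 and Ube2e1), and the E2-like partners of Ube2n (Ube2v1 and Ube2v2). The knockdown experiment used tumours grown in mouse lungs from LLC cells, the Lewis lung carcinoma line of mouse. The group OTUB1_KD (genotype OTUB1 knockdown) carried a lentivirus against Otub1, and the group NC (genotype WT) carried a negative control lentivirus. In the treatment experiment, mice with LLC tumours of genotype WT received SFD@M, a preparation that the labels do not describe, or physiological saline (group Blank). Each group had 3 libraries of oligo(dT)-selected messenger RNA. By the labels, LLC cells received the virus before tumours were made, and the Otub1 of host cells in the tumours was not measured apart. The labels used here give no strain, sex or age of the mice, no hairpin sequence and no time of sampling. They do not say whether the OTUB1_KD titles, coded sh1A to sh3A, stand for different hairpins, nor whether each library is its own animal. Every p-value here therefore rests on the spread between libraries, which may be technical. Titles of Blank samples hold codes starting with KD, and these samples were grouped by their other label words, Blank and saline.

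Ubiquitin is passed from an E1 activating enzyme to the active-site cysteine of an E2 enzyme, and from there to a substrate with the help of an E3 ligase. OTUB1 acts on this chain in a pair of ways: as a deubiquitinase it cuts the ubiquitin chains that mark proteins for degradation, and without cutting anything it binds E2 enzymes loaded with ubiquitin and blocks the transfer. Its best-known target in this second role is UBC13, the product of Ube2n, which builds non-degradative signalling chains only when paired with a UEV protein, encoded by Ube2v1 or Ube2v2, and which serves inflammatory signalling and the response to DNA breaks. The UBCH5 enzymes (Ube2d1, Ube2d2a and Ube2d3) and UBE2E1 are general-purpose E2 enzymes that OTUB1 also binds.

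The catalytic cysteine is the residue that holds the chemistry of the OTU proteases and of the E2 enzymes alike, so the coding sequence around it is shown for members of both families. Each line gives 20 codons of the coding strand, read from the GENCODE transcript of GRCm38 that matches the RefSeq transcript, with the cysteine codon in capitals.
Otub1: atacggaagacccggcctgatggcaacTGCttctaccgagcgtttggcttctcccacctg
Otub2: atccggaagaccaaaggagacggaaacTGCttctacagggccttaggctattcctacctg
Ube2n: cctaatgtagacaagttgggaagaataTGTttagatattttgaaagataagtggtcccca
Ube2d1: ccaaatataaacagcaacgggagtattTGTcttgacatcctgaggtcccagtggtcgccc
Ube2d3: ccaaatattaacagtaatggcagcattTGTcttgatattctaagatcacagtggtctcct
Ube2e1: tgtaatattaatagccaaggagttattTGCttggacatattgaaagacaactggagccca
The capital codon is codon 91 of 271 in Otub1 and codon 51 of 234 in Otub2. It is codon 87 in Ube2n, codon 85 in Ube2d1 and Ube2d3, and codon 131 in Ube2e1. Otub2 and Otub1 were identical at 44 of these 60 bases (73.3%), and Ube2d1 and Ube2d3 at 48 of 60 (80.0%). Over their whole length, the transcripts of Otub1, Otub2 and Ube2d1 shared no stretch of 100 bases with any other annotated gene. Reads of the OTUB pair can therefore be told apart. Such stretches covered 7.85% of Ube2d3, 8.25% of Ube2v2, 9.55% of Ube2n and 14.5% of Ube2d2a, mostly as copies in processed pseudogenes, and for Ube2d3 in Spopl. For Ube2v1 the shared part was 88.4%, of which Gm20431, a protein-coding gene annotated over Ube2v1 on the same strand, held 81.1% of all its stretches. For Ube2e1 it was 47.4%, all shared with Nkiras1, which overlaps it on the opposite strand. Levels of Ube2v1 and Ube2e1 are therefore uncertain, since neither the sharing of reads with Gm20431 nor the handling of strand is given in the sources used here.

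Library totals were 16062806 to 18028828 counts. Replicates of the 4 groups were not equally alike. The chi-square per degree of freedom between replicates, where 1 stands for counting noise alone, was 96.93 to 160.3 in OTUB1_KD, against 1.379 to 1.996 in NC, and 16.84 to 31.74 in SFD@M, against 1.317 to 1.555 in Blank. The groups also differed in cell-type markers, given here as CPM (counts scaled to a common library total) summed over each list. The 15 leukocyte markers summed to 818 to 1170 CPM in OTUB1_KD and 1.84 to 2.68 CPM in NC, and to 1340 to 2020 CPM in SFD@M and 0.697 to 0.991 CPM in Blank. Ptprc, the pan-leukocyte CD45 gene, was at 154 to 239 CPM in OTUB1_KD and 209 to 227 CPM in SFD@M, and at 0 in 2 of 3 libraries of both NC and Blank. The 10 alveolar markers summed to 11800 to 28200 CPM in OTUB1_KD and 75.2 to 83.6 CPM in NC, and to 26500 to 28700 CPM in SFD@M and 65.8 to 68.7 CPM in Blank. In NC and Blank, Sftpc and Scgb1a1, which define alveolar and airway secretory cells, were below 0.3 CPM in every library. The 8 markers of dividing cells ran the other way, at 234 to 1070 CPM in OTUB1_KD and 3080 to 3160 CPM in NC, and at 31.0 to 108 CPM in SFD@M and 3230 to 3310 CPM in Blank. Ptprc, Sftpc and Scgb1a1 were thus at or near 0 in NC and Blank, although all 4 groups carry the same tissue label, lung cancer. Of the 10 alveolar markers, 3 were at 1 CPM or more in all 3 libraries of NC, and 3 in those of Blank. The 9 fibroblast and mural markers summed to 3670 to 5310 CPM in OTUB1_KD and 2180 to 2290 CPM in NC. Their sums were 1880 to 2610 CPM in SFD@M and 2710 to 2780 CPM in Blank. These sums hide opposite changes, by the edgeR test described below. In SFD@M against Blank, 8 of the 9 rose and 1, Col3a1, fell, with a median log2 fold change of 4.19. Col3a1 was at 364 to 753 TMM-scaled CPM in SFD@M, against 2470 to 2520 in Blank. In OTUB1_KD against NC, 7 of the 9 rose and 0 fell. In every comparison of these groups, a change in a gene's level within cells and a change in the cells sampled cannot be told apart, nor can fewer cells of a type be told from less RNA per cell.

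Per unit of transcript length, Ube2d3 was the most abundant of the 9 genes, with a mean of 194 TPM (a length-corrected share of transcripts) over the 12 libraries. Ube2v1 followed at 138 TPM, Ube2n at 115, Ube2d2a at 102 and Ube2e1 at 76.4 TPM. Otub1 had a mean of 66.6 TPM, Ube2d1 of 39.8 TPM and Ube2v2 of 26.2 TPM. Otub2 was the scarcest, at a mean of 4.07 TPM. From here on, levels of a gene in different libraries are CPM under 1 common TMM scaling of the 12 libraries. They serve for comparison between libraries, not between genes, and depend on that scaling. With limma on log2(TPM + 1), the all-gene median change in SFD@M against Blank was −0.033, against 0.232 with TMM scaling. Changes are log2 fold changes ± SE from edgeR's quasi-likelihood test, fitted in each comparison by itself and adjusted over all genes tested (Benjamini-Hochberg).

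**Figure D1:**
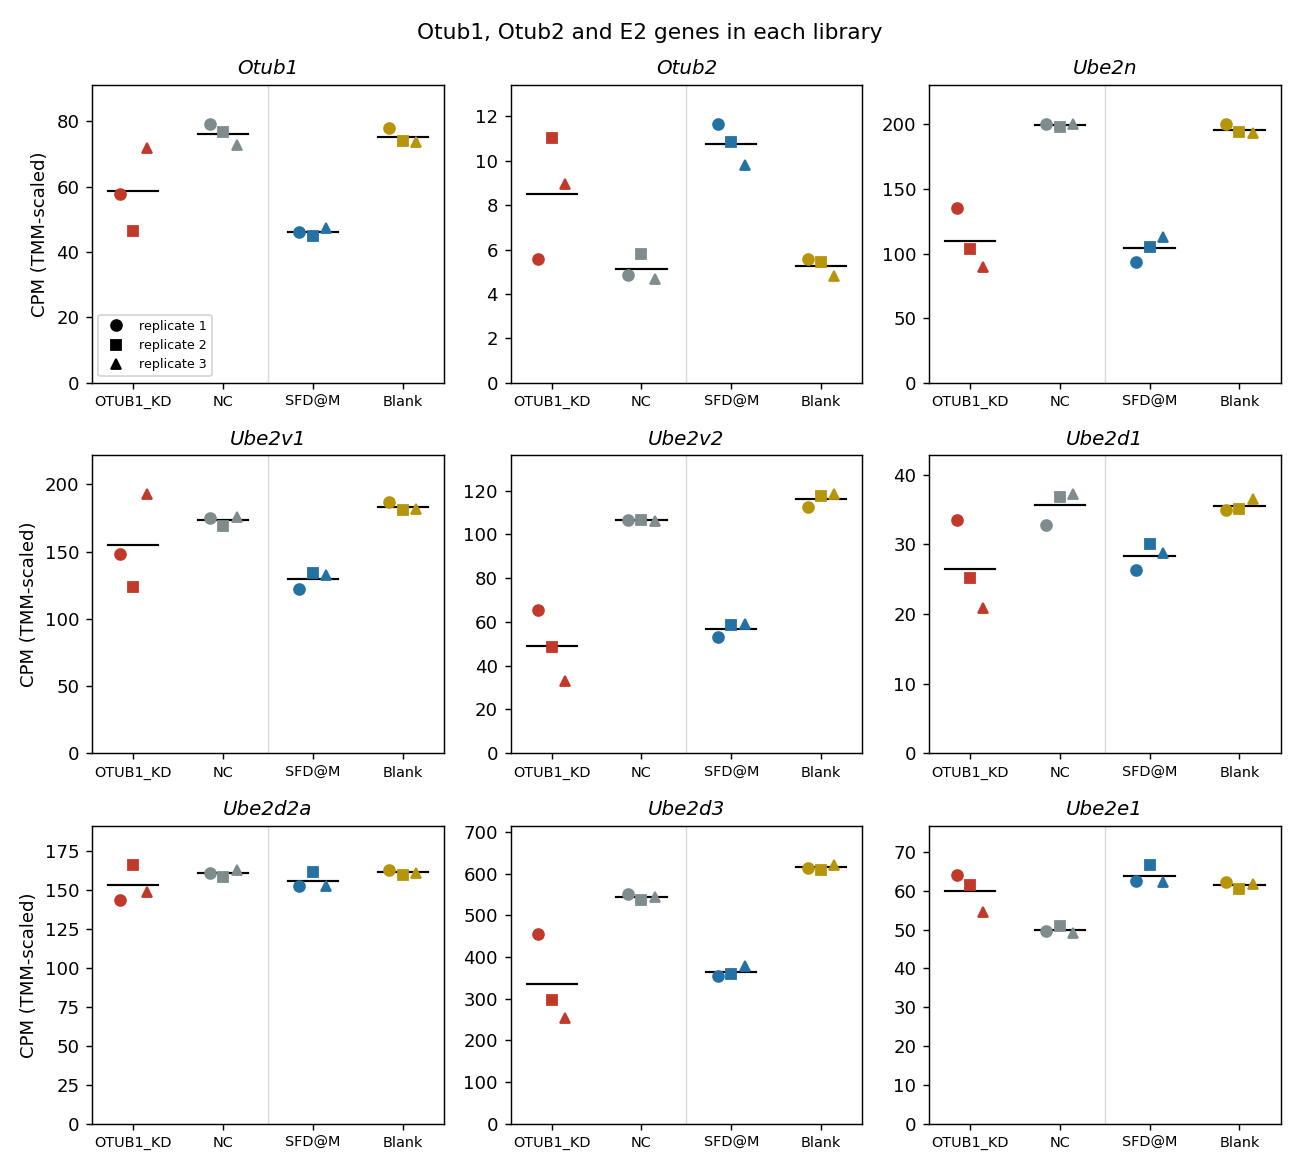
Level of each of the 9 genes in each library, in CPM after TMM scaling over the 12 libraries. Symbols mark replicates 1 to 3 and bars the mean of a group of 3. Otub2 sits higher in SFD@M (9.83 to 11.7 CPM) than in Blank (4.80 to 5.57 CPM), while Otub1, Ube2n, Ube2v1, Ube2v2, Ube2d1 and Ube2d3 sit lower in SFD@M. The OTUB1_KD libraries spread more widely than those of the other groups for all 9 genes, and for Ube2d2a their range (144 to 166 CPM) takes in the other 3 groups.

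Otub1, the gene that the knockdown virus targets, was at 57.7, 46.3 and 71.8 CPM in the 3 OTUB1_KD libraries, against 79.3, 76.6 and 72.8 CPM in NC. All 3 OTUB1_KD libraries lay below NC, but replicate 3 only just so. The change was −0.36 ± 0.18 on the log2 scale and did not pass the test (adjusted p = 0.112). It passed without OTUB1_KD replicate 3 (−0.53, adjusted p = 0.015). Without any other single library it did not pass (adjusted p = 0.137 to 0.242), and it was −0.24 without OTUB1_KD replicate 2 (adjusted p = 0.188). In SFD@M, Otub1 was at 46.1, 45.01 and 47.3 CPM, against 77.9, 73.9 and 73.8 CPM in Blank. The groups did not overlap, and Otub1 fell by 0.71 ± 0.05 on the log2 scale (adjusted p = 5.8e-06). The order of the 4 means was SFD@M, OTUB1_KD, Blank and NC from low to high, with SFD@M overlapping OTUB1_KD, and Blank overlapping NC. Otub1 has 1 transcript in the table, NM_134150, so a test of transcript usage was not possible. Taken as a transcript, it was at 57.1, 44.1 and 67.1 TPM in OTUB1_KD, against 84.8, 82.3 and 77.5 TPM in NC. The transcript-level test scales the same counts over all transcripts and is no second measurement. Its change was −0.24 ± 0.20 (adjusted p = 0.426). The transcript was at 42.5, 43.4 and 43.8 TPM in SFD@M, against 89.2, 83.7 and 84.0 TPM in Blank. In this test it fell by 0.58 ± 0.06 on the log2 scale (adjusted p = 0.000522).

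Otub2, a smaller relative that cuts several kinds of ubiquitin chain and is not known for blocking E2 enzymes, moved in the opposite direction to Otub1 in SFD@M against Blank. It was at 11.7, 10.8 and 9.83 CPM in SFD@M, against 5.57, 5.435 and 4.80 CPM in Blank. Each SFD@M library was above each Blank library, and Otub2 rose by 1.03 ± 0.13 on the log2 scale (adjusted p = 0.000148). In OTUB1_KD it was at 5.58, 11.02 and 8.94 CPM, against 4.86, 5.79 and 4.695 CPM in NC. OTUB1_KD replicate 1 lay within the range of NC, and the change of 0.76 ± 0.31 did not pass (adjusted p = 0.067). It passed without that replicate (0.98, adjusted p = 0.00821), with DESeq2 (0.78, adjusted p = 0.0475) and in the fit of all 12 libraries (0.735, adjusted p = 0.0135). It was 0.50 without OTUB1_KD replicate 2 (adjusted p = 0.161) and 0.44 with limma on log2(TPM + 1) (adjusted p = 0.123). Otub2 made up 12.2%, 11.6% and 10.3% of the summed TPM of the OTUB pair in SFD@M, against 3.72%, 3.85% and 3.42% in Blank. The share was 5.00%, 11.6% and 6.57% in OTUB1_KD, against 3.23%, 3.96% and 3.37% in NC. In both comparisons the groups did not overlap, at an exact two-sided permutation p = 0.1, the smallest that 3 against 3 libraries allow. Most Otub2 TPM came from the transcript NM_026580 (89.8% in SFD@M and 82.3% in Blank), and its level rose in SFD@M against Blank (1.29 ± 0.23, adjusted p = 0.00524).

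The 250 bases before the annotated starts of Otub1, Otub2 and Ube2n are shown because the OTUB genes moved in opposite directions in SFD@M against Blank, while Otub1 and Ube2n both had their lowest group means in SFD@M. They are RefSeq windows of GRCm38.p6, which is not the authors' build, and each is written along the gene's strand. Capitals mark the letters CCGGAAG, the core of an ETS site, or GGGCGG, a GC box, on either strand.
Otub1, chr19:7206285-7206534, minus strand: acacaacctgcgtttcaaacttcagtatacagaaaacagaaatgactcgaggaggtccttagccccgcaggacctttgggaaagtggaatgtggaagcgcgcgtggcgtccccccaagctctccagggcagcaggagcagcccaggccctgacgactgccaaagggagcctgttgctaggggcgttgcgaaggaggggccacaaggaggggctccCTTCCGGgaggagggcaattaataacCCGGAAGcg
Otub2, chr12:103388432-103388681, plus strand: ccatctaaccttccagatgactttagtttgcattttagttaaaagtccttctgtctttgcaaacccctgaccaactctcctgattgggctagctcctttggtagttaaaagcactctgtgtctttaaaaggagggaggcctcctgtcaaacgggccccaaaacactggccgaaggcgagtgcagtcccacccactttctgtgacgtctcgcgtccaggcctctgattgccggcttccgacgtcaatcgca
Ube2n, chr10:95514912-95515161, plus strand: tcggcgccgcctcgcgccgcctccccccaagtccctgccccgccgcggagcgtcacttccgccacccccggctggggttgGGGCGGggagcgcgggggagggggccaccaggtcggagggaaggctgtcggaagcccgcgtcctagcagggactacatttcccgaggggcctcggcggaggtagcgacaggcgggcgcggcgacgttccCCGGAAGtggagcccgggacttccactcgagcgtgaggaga
Counted over the full window, which adds 50 bases after the start, Otub1 held 2 matches to CCGGAAG and none to GGGCGG, and Ube2n held 1 of each. Otub2 held neither. Over all 32851 windows of the table, 8.86% held CCGGAAG and 35.7% held GGGCGG. A search for AAGATGG, the core of a YY1 site, found 1 match each in Otub1 and Ube2n, past the printed part, and 6.34% of all windows held it. The GC content was 60.0% in Otub1, 53.7% in Otub2 and 72.7% in Ube2n, beside a median of 52.7% over all windows, and the number of CpG pairs was 18, 13 and 36, beside a median of 7. Of the 7 members with a window, each counted in the window nearest its GENCODE start, 4 held CCGGAAG, 5 GGGCGG and 4 AAGATGG. Ube2v2 and Ube2d2a had no window. A match is a run of letters and was not tested for binding.

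Ube2n, the UBC13 gene, was lower in both comparisons. It was at 135, 104 and 89.8 CPM in OTUB1_KD, against 200.5, 198 and 200.1 CPM in NC. Every OTUB1_KD library was below every NC library, and Ube2n fell by 0.84 ± 0.19 on the log2 scale (adjusted p = 0.00643). In SFD@M it was at 93.8, 105 and 113 CPM, against 200, 194 and 193 CPM in Blank, and fell by 0.92 ± 0.07 (adjusted p = 8.18e-06). Both annotated Ube2n transcripts fell in SFD@M against Blank: NM_080560 by 0.69 ± 0.10 (adjusted p = 0.00234) and XM_006514344 by 0.85 ± 0.08 (adjusted p = 0.000558). The share of NM_080560 in Ube2n TPM was 23.2% in OTUB1_KD and 27.2% in NC, and 24.3% in SFD@M and 22.3% in Blank.

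The UEV partners of Ube2n, which lack an active-site cysteine and set the kind of chain that UBC13 builds, did not move alike. Ube2v2, the MMS2 gene, was at 65.4, 48.3 and 33.1 CPM in OTUB1_KD, against 106, 107 and 106 CPM in NC. The groups did not overlap, and Ube2v2 fell by 1.10 ± 0.25 on the log2 scale (adjusted p = 0.00704). It was at 52.9, 58.5 and 58.9 CPM in SFD@M, against 113, 117 and 118 CPM in Blank, and fell by 1.04 ± 0.06 (adjusted p = 1.13e-06). Ube2v1, the UEV1A gene, was at 148, 124 and 193 CPM in OTUB1_KD, against 175, 169 and 176 CPM in NC. The groups overlapped, with OTUB1_KD replicate 3 the highest of all 12 libraries, and the change of −0.14 ± 0.19 did not pass (adjusted p = 0.52). Without that library it passed (−0.33, adjusted p = 0.0478). In SFD@M, Ube2v1 was at 122, 134 and 132 CPM, against 187, 181 and 181 CPM in Blank. It fell by 0.51 ± 0.05 (adjusted p = 4.82e-05).

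Ube2v1 made up 85.8%, 87.4% and 94.5% of the summed TPM of the UEV pair in OTUB1_KD, against 82.2%, 81.25% and 82.1% in NC. It made up 86.0%, 86.1% and 85.8% in SFD@M, against 82.1%, 80.9% and 81.0% in Blank. The groups did not overlap in either comparison (exact two-sided permutation p = 0.1, the smallest possible here). The ratio of Ube2n TPM to the summed TPM of the UEV pair was 0.705, 0.609 and 0.387 in OTUB1_KD, against 0.792, 0.799 and 0.770 in NC. That ratio was 0.577, 0.572 and 0.640 in SFD@M, against 0.764, 0.780 and 0.758 in Blank. It was lower in all 3 libraries of OTUB1_KD and of SFD@M than in any of their controls (exact two-sided permutation p = 0.1 in both). The shared sequence of Ube2v1 and Gm20431 touches these shares, and Gm20431 could not be analysed because it has no entry under that name.

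Ube2d3, the most abundant of the UBCH5 genes, was at 457, 296 and 255 CPM in OTUB1_KD, against 552, 537 and 545 CPM in NC. The groups did not overlap, and Ube2d3 fell by 0.68 ± 0.24 on the log2 scale (adjusted p = 0.0434). This call was lost without OTUB1_KD replicate 2 (−0.62, adjusted p = 0.0987) or 3 (−0.51, adjusted p = 0.0814), without NC replicate 1, 2 or 3 (adjusted p = 0.111, 0.104 and 0.104), and with library totals in place of TMM scaling (−0.61, adjusted p = 0.067). In SFD@M, Ube2d3 was at 354.5, 359.9 and 378 CPM, against 614, 610.3 and 622 CPM in Blank. It fell by 0.76 ± 0.06 (adjusted p = 4.64e-06).

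Ube2d1 was at 33.45, 25.1 and 20.8 CPM in OTUB1_KD, against 32.8, 36.8 and 37.2 CPM in NC. The groups overlapped through OTUB1_KD replicate 1, and the change of −0.41 ± 0.20 did not pass (adjusted p = 0.113). It passed without that replicate (−0.61, adjusted p = 0.0123) and was −0.26 without OTUB1_KD replicate 3 (adjusted p = 0.177). In SFD@M, Ube2d1 was at 26.3, 30.1 and 28.8 CPM, against 35.0, 35.1 and 36.6 CPM in Blank, with no overlap. It fell by 0.33 ± 0.07 (adjusted p = 0.00277), a call that was lost when all 12 libraries were fitted together (−0.32, adjusted p = 0.0697). Ube2d2a was at 144, 166 and 149 CPM in OTUB1_KD, against 161, 158 and 163 CPM in NC. In SFD@M it was at 153, 162 and 153 CPM, against 163, 160.1 and 161 CPM in Blank. It varied least of the 9 genes, with a highest library 1.16 times the lowest. Neither change passed: −0.05 ± 0.15 in OTUB1_KD against NC, with a 95% interval of −0.39 to 0.30 (adjusted p = 0.793), and −0.06 ± 0.05 in SFD@M against Blank, with an interval of −0.17 to 0.05 (adjusted p = 0.274). On log2(TPM + 1) with limma, Ube2d2a fell by 0.32 in SFD@M against Blank (adjusted p = 0.000746). The all-gene median was −0.03 there and 0.23 in the main fit.

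Within the summed TPM of the UBCH5 genes, Ube2d2a therefore took a larger part in OTUB1_KD and SFD@M. Its share was 29.0%, 41.3% and 42.35% in OTUB1_KD, against 28.1%, 27.9% and 28.2% in NC, so that OTUB1_KD replicate 1 stood close to NC. It was 35.7%, 36.2% and 34.1% in SFD@M, against 26.3%, 26.1% and 25.8% in Blank. The share of Ube2d3 was 58.0%, 46.6% and 46.7% in OTUB1_KD, against 60.7%, 59.6% and 59.4% in NC. In SFD@M the Ube2d3 share was 52.4%, 50.8% and 53.3%, against 62.7%, 62.85% and 62.8% in Blank. Neither gene's shares overlapped between groups in either comparison (exact two-sided permutation p = 0.1 for each). The share of Ube2d1 overlapped in OTUB1_KD and NC, with means of 12.0% and 12.1% (exact permutation p = 1.0), and its mean was 12.5% in SFD@M and 11.1% in Blank (exact permutation p = 0.1).

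**Figure D2:**
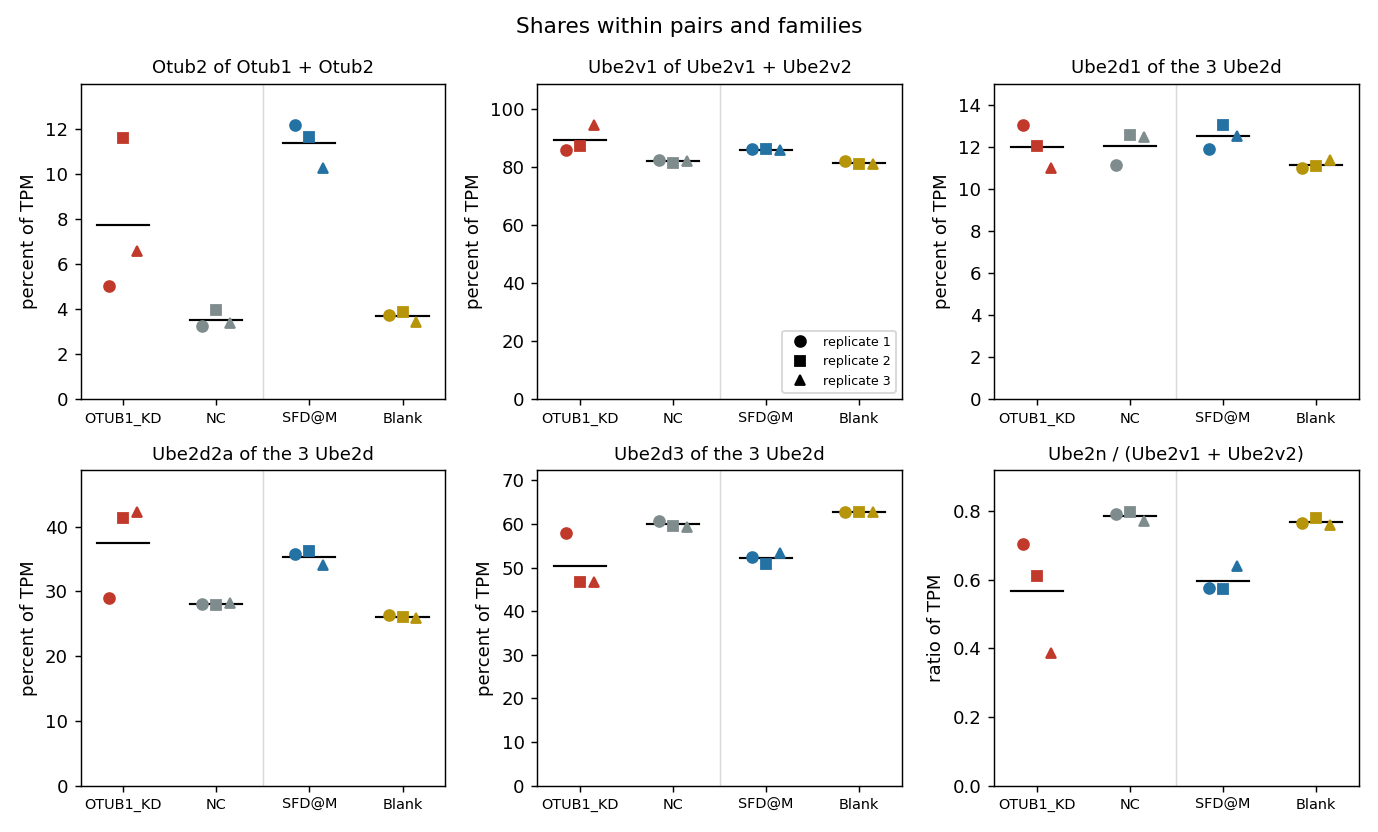
Shares of summed TPM within the OTUB pair, the UEV pair and the UBCH5 genes, in percent, and the ratio of Ube2n TPM to summed UEV TPM, for each library. Symbols mark replicates 1 to 3 and bars the mean of a group of 3. The Otub2 share was 10.3% to 12.2% in SFD@M and 3.42% to 3.85% in Blank, and the ratio for Ube2n was 0.572 to 0.640 in SFD@M and 0.758 to 0.780 in Blank.

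Ube2e1 was at 64.15, 61.4 and 54.6 CPM in OTUB1_KD, against 49.7, 51.0 and 49.2 CPM in NC. All 3 OTUB1_KD libraries were above NC, but the change of 0.29 ± 0.13 did not pass (adjusted p = 0.0931). It passed without OTUB1_KD replicate 3 (0.35, adjusted p = 0.0164), with upper quartile scaling (0.35, adjusted p = 0.0451) and in the fit of all 12 libraries (0.265, adjusted p = 0.0179). It was 0.09 with limma on log2(TPM + 1) (adjusted p = 0.582). In SFD@M it was at 62.6, 66.7 and 62.3 CPM, against 62.4, 60.5 and 61.7 CPM in Blank. The groups overlapped, and the change of 0.05 ± 0.05 had a 95% interval of −0.075 to 0.17 (adjusted p = 0.414). On log2(TPM + 1) with limma the sign was the opposite (−0.23, adjusted p = 0.00671). The all-gene median was −0.03 there and 0.23 in the main fit. The main transcript, NM_009455, held 99.5% of Ube2e1 TPM in SFD@M and 99.9% in Blank, so it is no second measurement. Under the scaling of edgeR's transcript-level test its change was 0.18 ± 0.06 (adjusted p = 0.044). Its TPM was lower in SFD@M (72.2, 81.5 and 72.9) than in Blank (90.4, 87.1 and 89.15). Nkiras1, the gene on the other strand, was at 9.22, 15.5 and 14.5 TPM in OTUB1_KD, against 7.93, 8.74 and 10.2 TPM in NC. It was at 14.3, 16.03 and 16.3 TPM in SFD@M, against 5.95, 6.60 and 6.13 TPM in Blank. Its part in the Ube2e1 counts was not tested.

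The order of the group means differed between genes. Otub2 ran NC, Blank, OTUB1_KD and SFD@M from low to high, and of these neighbours OTUB1_KD and Blank alone did not overlap. They missed overlap only just, with OTUB1_KD replicate 1 at 5.576 CPM and Blank replicate 1 at 5.57 CPM. Ube2n had the order of Otub1, with the same overlaps. Ube2v2 and Ube2d3 both ran OTUB1_KD, SFD@M, NC and Blank, where OTUB1_KD and SFD@M overlapped and the other neighbours did not. Ube2v1 ran SFD@M, OTUB1_KD, NC and Blank, and its neighbours other than NC and Blank overlapped. Ube2d1 ran OTUB1_KD, SFD@M, Blank and NC, with a gap between SFD@M and Blank alone. All neighbours overlapped for Ube2d2a. Ube2e1 ran NC, OTUB1_KD, Blank and SFD@M, with a gap between OTUB1_KD and NC alone.

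In counts over the members, 3 of 9 fell and 0 rose in OTUB1_KD against NC by edgeR, where 65.7% of 14785 tested genes were called in either direction (25.8% lower and 39.9% higher). Otub2 was the 1 member higher at an unadjusted p below 0.05, and DESeq2 called it (0.78, adjusted p = 0.0475). The count of members called was 5 without OTUB1_KD replicate 1 or 3, and 2 without OTUB1_KD replicate 2 or any 1 of the NC libraries. The median change of the members was −0.36, beside 0.16 over all genes tested. The groups did not overlap for 5 of 9 members, beside 79.2% of all genes. In SFD@M against Blank, 6 of 9 fell and 1 rose, where 88.1% of 14824 tested genes were called (38.7% lower and 49.5% higher). The median was −0.51, beside 0.23 over all genes, and groups did not overlap for 7 of 9 members, beside 90.1% of all genes. With the deposited TPM in place of scaled counts, the all-gene median moved to −0.02 in OTUB1_KD against NC and −0.03 in SFD@M against Blank.

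**Figure D3:**
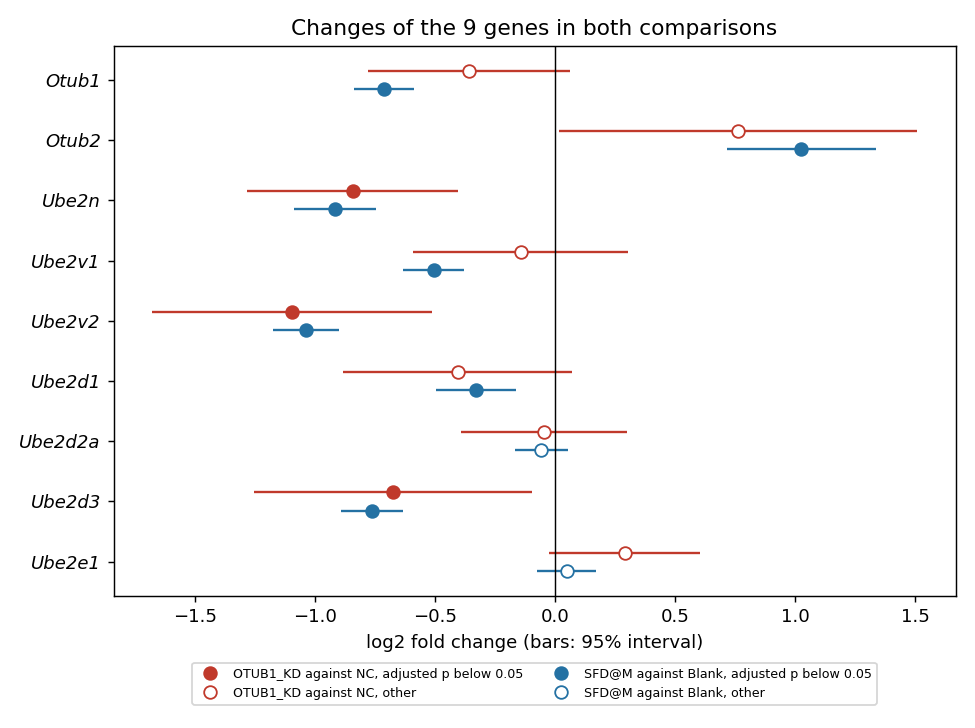
Log2 fold change of each of the 9 genes in OTUB1_KD against NC (red) and in SFD@M against Blank (blue), with bars of the 95% interval of edgeR's quasi-likelihood test, before any adjustment for multiple tests. Filled points have a Benjamini-Hochberg adjusted p below 0.05 and open points do not. The bars are longer in OTUB1_KD against NC, where the SE is 0.13 to 0.31, than in SFD@M against Blank, where it is 0.05 to 0.13.

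Set against each other in 1 fit of all 12 libraries, the changes of the 2 experiments gave no call among the 9 genes in edgeR or DESeq2 (0 of 9, beside 23.1% of 15304 genes in edgeR), and none of the 9 had an unadjusted p below 0.05. Their difference is given as the change in SFD@M against Blank minus the change in OTUB1_KD against NC. For Otub1 it was −0.33 ± 0.19 (adjusted p = 0.241) with a 95% interval of −0.75 to 0.09, and for Ube2v1 it was −0.34 ± 0.20 (adjusted p = 0.25). For Ube2n it was −0.05 ± 0.20, with an interval of −0.48 to 0.39, and for Ube2v2 it was 0.09 ± 0.26, with an interval of −0.49 to 0.67. These intervals give the differences that are compatible with the 12 libraries. Without OTUB1_KD replicate 2 the difference passed for Otub1 (−0.47, adjusted p = 0.0217) and Ube2v1 (−0.47, adjusted p = 0.0357), and without OTUB1_KD replicate 3 it passed for Ube2e1 (−0.27, adjusted p = 0.0474). The number of all genes called in this contrast ran from 2090 without NC replicate 1 to 5523 without OTUB1_KD replicate 2, against 3537 with all libraries.

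Between the control groups, 4 of 9 genes were higher in Blank than in NC and 0 were lower, with edgeR and with DESeq2, and 0 were lower at an unadjusted p below 0.05, where 74.3% of 12087 tested genes were called (37% higher and 37.2% lower). Groups did not overlap for 5 of 9 members, beside 75.3% of all genes. Ube2e1 was higher by 0.35 ± 0.04 (adjusted p = 1.8e-11), Ube2d3 by 0.23 ± 0.02 (adjusted p = 3.29e-14), Ube2v2 by 0.18 ± 0.03 (adjusted p = 1.41e-06) and Ube2v1 by 0.13 ± 0.03 (adjusted p = 2.55e-05). These calls rest on libraries that differ from their replicates by little more than counting noise. In the fit of all 12 libraries, which shares the wider spread of the other groups, Ube2e1 was the 1 member still called (0.30, adjusted p = 0.0401). Otub1 differed by 0.03 ± 0.04 (adjusted p = 0.468), with a 95% interval of −0.045 to 0.11. Between SFD@M and OTUB1_KD, 0 of 9 genes passed edgeR's quasi-likelihood test, where 0.0134% of 14914 genes were called, and the ranges overlapped for all 9 genes, beside 28.1% of all genes without overlap. None of the 9 passed at an unadjusted p below 0.05 either, nor with DESeq2, which called 1372 genes in all. Without OTUB1_KD replicate 2, 1875 genes were called, none of them a member. In these 2 comparisons the experiment and the group cannot be told apart.

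OTUB1_KD replicate 3 had the lowest level of all 12 libraries for Ube2n, Ube2v2, Ube2d1 and Ube2d3, and at the same time the highest for Ube2v1 and the highest of its group for Otub1. In that library the leukocyte markers summed to 818 CPM, the lowest of the 3 OTUB1_KD libraries, and the alveolar markers to 28200 CPM, the highest. OTUB1_KD replicate 1 stood nearest to NC for Ube2n, Ube2v2, Ube2d1, Ube2d3, Otub2 and the shares of Ube2d2a and Ube2d3. It had 1070 CPM of dividing-cell markers, against 234 and 399 CPM in the other 2 OTUB1_KD libraries, and Mki67, a gene of proliferating cells, was at 208 CPM in it, against 72.1 and 47.7 CPM in the others. In SFD@M, Mki67 was at 8.16, 26.5 and 32.9 CPM, against 696, 679 and 690 CPM in Blank, and in NC it was at 707, 693 and 691 CPM. Whether these markers account for the members' levels was not tested.

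**Figure D4:**
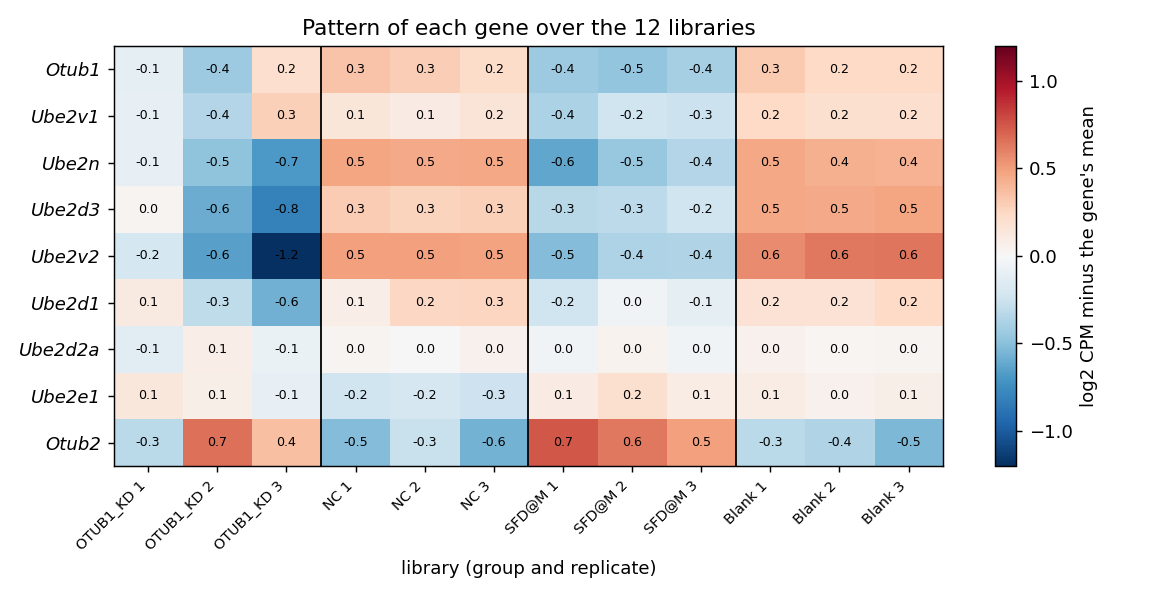
Log2 CPM of each of the 9 genes in each library, minus the mean of that gene over the 12 libraries. Columns are libraries by group and replicate, and numbers give the plotted difference. The rows for Otub1 and Ube2v1 share their high OTUB1_KD replicate 3, those for Ube2n, Ube2d3, Ube2v2 and Ube2d1 share their low value in that library, and Otub2 runs opposite to them in SFD@M.

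The genes most like Otub1 were found by the root-mean-square difference of their log2(TPM + 1) profiles over the 12 libraries, each centred on its own mean, among 13740 genes with a mean of at least 1 TPM. They were Cops6 (0.0723), Dlst (0.0731), Nudcd3 (0.0764), Zfp142 (0.0769) and Pskh1 (0.0834), where the median over all genes was 0.58. Cops6, a subunit of the COP9 signalosome, averaged 127 TPM in OTUB1_KD and 170 TPM in NC, and 96.9 TPM in SFD@M and 201 TPM in Blank. Among the members, Ube2v1 was nearest to Otub1, at 0.124 and rank 92, while Ube2n was at 0.276 and rank 1949, and Otub2 was beyond the median at 0.726. The genes most like Ube2n were Septin2 (0.0498), Zfp111 (0.0546) and Senp5 (0.0586), a SUMO protease, and the nearest member was Ube2d3 (0.125, rank 133). Those most like Otub2 were Ripor1 (0.0974), Prkce (0.113) and Ski (0.113). These are descriptions of 12 libraries that share 4 groups, and likeness of profile says nothing of shared control.

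Transcript by transcript, the 9 genes have 27 transcripts in the table, of which 21 were tested for level and 18 for usage (the share of a gene's output) in each comparison. In SFD@M against Blank, 9 fell and 2 rose in level, where 52.1% of all transcripts were called, and 0 of 18 changed in usage (2 at an unadjusted p below 0.05), where 6.92% did (diffSpliceDGE in edgeR, adjusted over all transcripts). The nearest to the threshold were a pair of Ube2d3 transcripts. NM_001356596 was at 24.7, 28.3 and 28.2 TPM in SFD@M, against 84.1, 83.7 and 83.8 TPM in Blank, and its share of Ube2d3 TPM was 19.9% in SFD@M and 30.1% in Blank (usage difference −0.42, adjusted p = 0.0533). NM_001356597 held 10.5% in SFD@M and 5.83% in Blank (0.59, adjusted p = 0.0535). The main Ube2d3 transcript, NM_025356, fell with the gene (−0.54 ± 0.05, adjusted p = 0.000411). All 3 Ube2v2 transcripts fell, with changes of −1.503 ± 0.23 for NM_001159351 (adjusted p = 0.00307), −1.13 ± 0.10 for NM_023585 (adjusted p = 0.000385) and −0.70 ± 0.07 for XM_011246011 (adjusted p = 0.000442). In OTUB1_KD against NC, 2 transcripts fell and 1 rose in level, where 29.9% of all were called: NM_080560 of Ube2n fell (−0.90 ± 0.17, adjusted p = 0.0129), NM_023585 of Ube2v2 fell (−0.90 ± 0.21, adjusted p = 0.0215), and XM_006526120 of Ube2d2a rose. That last transcript, named after its values were seen, was the 1 of 18 called for usage (adjusted p = 0.00758, where 2.96% of all were called). It was at 0.62, 1.56 and 0.78 TPM in OTUB1_KD and listed at 0 in all 3 NC libraries, and it made up 1.06% of Ube2d2a TPM in OTUB1_KD. The error of splitting reads between transcripts is not part of these tests. Levels here have their own scaling over transcripts, and the 2 that rose in SFD@M include NM_009455 of Ube2e1, whose TPM was lower there.

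The other genes of the pathway are given for lists of E1, E2 and E3 genes and of OTUB1 partners, as counts beside the all-gene shares above. Upstream of the E2 enzymes, 2 of the 6 E1 and ubiquitin genes fell in OTUB1_KD against NC and 5 of 6 in SFD@M against Blank, and 0 rose in either, nor at an unadjusted p below 0.05, with medians of −0.38 and −1.02. Uba6, an E1 enzyme, was at 30.5, 14.8 and 11.2 CPM in OTUB1_KD, against 64.7, 67.85 and 64.5 CPM in NC, and fell by 1.80 ± 0.36 (adjusted p = 0.00451). It fell by 2.03 ± 0.07 in SFD@M against Blank (adjusted p = 8.34e-08), where Uba1, the main E1 enzyme, fell by 1.396 ± 0.07 (adjusted p = 6.69e-07). Rps27a, a ubiquitin-ribosomal fusion gene, fell by 0.94 ± 0.22 in OTUB1_KD (adjusted p = 0.00862).

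Of 24 other E2 genes 22 were tested, and Ube2d2b and Ube2u were too low. In OTUB1_KD against NC, 12 of the 22 fell and 1 rose (median −0.47), and in SFD@M against Blank 17 fell and 4 rose (median −0.47). Birc6, a giant E2 and E3 in 1 protein, fell by 1.23 ± 0.20 in OTUB1_KD (adjusted p = 0.00154) and by 1.43 ± 0.05 in SFD@M (adjusted p = 6.9e-08). Ube2t, the E2 of the Fanconi anaemia pathway, was at 10.3, 3.22 and 7.43 CPM in OTUB1_KD, against 43.8, 49.2 and 49.1 CPM in NC, and fell by 2.76 ± 0.40 (adjusted p = 0.00101). Ube2s, which extends chains in mitosis, fell by 1.61 ± 0.05 in SFD@M (adjusted p = 7.78e-08). Dividing-cell markers, which fell in both comparisons (8 of 8 in each), stand beside these values, and their part was not tested. Ube2g2, an E2 of the degradation of endoplasmic reticulum proteins, rose by 0.59 ± 0.18 in OTUB1_KD (adjusted p = 0.0237) and by 0.64 ± 0.10 in SFD@M (adjusted p = 0.000335). Ube2b, an E2 of DNA damage tolerance, rose by 0.40 ± 0.07 in SFD@M (adjusted p = 0.00109).

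Of 15 E3 ligases that work with UBC13, 5 fell and 2 rose in OTUB1_KD against NC, and 7 fell and 5 rose in SFD@M against Blank (medians −0.18 and −0.19). Birc3, the cIAP2 ligase of inflammatory signalling, was at 47.9, 50.2 and 53.9 CPM in OTUB1_KD, against 5.485, 6.94 and 6.13 CPM in NC, and rose by 3.03 ± 0.17 (adjusted p = 2.35e-05). It rose by 3.28 ± 0.11 in SFD@M (adjusted p = 6.63e-08), and the leukocyte markers rose in both comparisons as well (15 of 15 in each). Chfr, a mitotic checkpoint ligase, rose by 0.39 ± 0.13 in OTUB1_KD (adjusted p = 0.0299), and Znrf1 rose by 0.73 ± 0.05 in SFD@M (adjusted p = 2.87e-06). Hltf, which acts at stalled replication forks, fell by 1.16 ± 0.24 in OTUB1_KD (adjusted p = 0.00515), and Rnf4, a SUMO-targeted ligase, fell by 0.77 ± 0.17 in OTUB1_KD (adjusted p = 0.00667) and by 1.27 ± 0.06 in SFD@M (adjusted p = 3.71e-07). Rnf168, the chromatin ligase whose UBC13-dependent step OTUB1 is known to block, was at 34.6, 27.3 and 17.0 CPM in OTUB1_KD, against 57.3, 56.2 and 53.6 CPM in NC. It fell by 1.09 ± 0.26 in OTUB1_KD (adjusted p = 0.009) and by 0.79 ± 0.06 in SFD@M (adjusted p = 6.53e-06).

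A list of 10 genes of this pathway at DNA breaks held readers and trimmers of its chains, and also Mdc1 and H2ax. Of the 10, 7 fell and 0 rose in OTUB1_KD against NC, and 9 fell and 1 rose in SFD@M against Blank (medians −0.79 and −1.41). None of the 10 was higher in OTUB1_KD at an unadjusted p below 0.05 either. Trp53bp1, the 53BP1 gene, fell by 0.96 ± 0.14 in OTUB1_KD (adjusted p = 0.000939), and Mdc1, the scaffold that recruits the chain-building ligases, fell by 1.60 ± 0.27 (adjusted p = 0.00201). In SFD@M, Bard1, the partner of BRCA1, fell by 4.52 ± 0.13 (adjusted p = 4.16e-08) and H2ax, the histone that marks breaks, by 2.91 ± 0.11 (adjusted p = 1.71e-07), while Babam2 rose by 0.44 ± 0.11 (adjusted p = 0.00521). The 8 dividing-cell markers also fell in both comparisons, and their part in the values of this list was not tested. Of 17 substrates and partners of OTUB1 named in the literature, 6 fell and 2 rose in OTUB1_KD against NC, and 10 fell and 5 rose in SFD@M against Blank (medians −0.28 and −0.18). Cd274, the PD-L1 gene, was at 80.1, 56.7 and 80.8 CPM in OTUB1_KD, against 13.6, 14.5 and 11.8 CPM in NC, and rose by 2.44 ± 0.20 (adjusted p = 8.97e-05). Deptor, an inhibitor of mTOR, fell by 2.11 ± 0.32 in OTUB1_KD (adjusted p = 0.00133) and by 1.65 ± 0.09 in SFD@M (adjusted p = 9.36e-07). Trp53 fell by 1.66 ± 0.06 in SFD@M (adjusted p = 7.66e-08), and Mdm2, its ligase, rose by 0.77 ± 0.06 (adjusted p = 4.95e-06). Rnf128, the GRAIL ligase of T cells, was at 20.1, 16.1 and 5.765 CPM in OTUB1_KD, against 0.0638, 0 and 0.304 CPM in NC (adjusted p = 0.000652). It was at 11.7, 13.3 and 23.4 CPM in SFD@M, against 0.117, 0 and 0 CPM in Blank (adjusted p = 6.3e-06). CPM in the account of these lists come from the scaling of the comparison they stand in.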

How the data were processed

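The deposited table lists 70659 transcripts. Per the file headers, the authors deposited estimated counts (expected count values that need not be whole) and TPM for each library. The build was GRCm39, per the submitters' processing notes, which also list RSEM 1.3.1, Bowtie2 and DESeq2 1.4.5 with no role given. Another 24 columns of values per library (FPKM and normalized counts) and 16 averages were not used. Expected counts were summed over each Entrez gene and rounded, and 19155 of 19212 genes were named through the RefSeq table of GRCm38.p6. Groups of 3 were compared with edgeR 4.0.16 in R 4.3.3 (filterByExpr, TMM, robust glmQLFit and glmQLFTest), with a call at a Benjamini-Hochberg adjusted p below 0.05 over all genes tested. The difference of changes was an interaction contrast over 12 libraries, and transcript usage was tested with diffSpliceDGE. Shares used TPM and exact permutation tests over libraries (scipy 1.17.1). The gene fit was tested on simulated counts. Alternatives were other scalings and filters, DESeq2 1.42.0, limma 3.58.1 on log2(TPM + 1) or log2(TPM + 0.1), 1 fit of 12 libraries, a replicate block and leaving out each library. Members, lists and tests were chosen with earlier results of these data known. Named were all 9 members and, of each pathway list, the 2 called genes with the smallest p in each direction and comparison; Otub1's transcript, 4 marker genes, and the 5 genes most like Otub1 and 3 most like Ube2n and Otub2.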

Additional observations from a re-analysis of the deposited data

How the results depend on the processing

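In SFD@M against Blank, the 7 called members were also called, in the same direction, under every alternative run, except Ube2d1 in the fit of all 12 libraries. In OTUB1_KD against NC, where OTUB1_KD libraries differ widely, the number of members called was 5 with limma on log2(TPM + 1), 5 on log2(TPM + 0.1) and 7 in the fit of all 12 libraries; Otub1 was −0.55 (adjusted p = 0.0303), −0.56 (adjusted p = 0.0299) and −0.38 (adjusted p = 0.0237) under these. Leaving out single libraries gave 2 to 5 members and −0.53 to −0.24 for Otub1. Ube2e1 in SFD@M against Blank turned to −0.227 and −0.23 (limma adjusted p = 0.00671 and 0.00658) on log2(TPM + 1) and log2(TPM + 0.1). Under these the all-gene median moved from 0.232 to −0.033 and −0.041, and Otub1 from −0.712 to −0.969 and −0.984. Whether that shift accounts for the sign of Ube2e1 was not tested. Blank against NC gave 2699 genes and 1 member in the fit of all 12 libraries, whose shared spread is wider. SFD@M against OTUB1_KD gave 15 genes without a filter, 1372 with DESeq2, 10 and 8 with limma on log2(TPM + 1) and log2(TPM + 0.1), 2863 in the fit of all 12 libraries, 7 with the replicate block and 0 to 1875 when single libraries were left out. The difference of changes gave 2090 to 5523 genes and 0 to 2 members when single libraries were left out.

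With counts in place of TPM, the difference in share was 6.751 (Otub2) and 13.54 (Ube2v1) percentage points in OTUB1_KD against NC, and 12.4 (Otub2), 8.325 (Ube2v1), 0.7995 (Ube2d1) and −9.345 (Ube2d3) in SFD@M against Blank, with −0.09578 for the Ube2n ratio; counts weight long transcripts more. Deviations from the group means were correlated between same-numbered libraries. The correlations were −0.00255 to 0.0808 in OTUB1_KD against NC and −0.00445 to 0.0128 in SFD@M against Blank. They cannot tell whether libraries were paired, since NC and Blank replicates differed by little more than counting noise. With a replicate block, 3 and 7 members were called in these comparisons. The wide spread of OTUB1_KD, more than depth, limits what could be seen there: the 95% interval of its Otub1 change ran from −0.78 to 0.06.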
